A study of Mus musculus with 12 samples.

Results

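Lipid droplet protein genes were followed in gonadal white adipose tissue (GWAT) of mice that lack HOIP, the catalytic subunit of the linear ubiquitin ligase complex, in mature adipocytes. The 10 genes were Plin1, Plin2, Plin3, Plin4, Plin5, Cidec, Hilpda, G0s2, Fitm2 and Bscl2, taken by symbol from 55281 genes of the estimated count table, and all 10 passed the filter on low counts (18427 genes tested). WT mice (Hoip fl/fl AdipoQ.Cre-) and HoipA-KO mice (Hoip fl/fl AdipoQ.Cre+) both carried the floxed Hoip (Rnf31) alleles and differed in Cre, which is driven by the Adiponectin promoter. From 6 weeks of age they received a control diet (CD, 14% fat) or a high-fat diet (HFD, 60% fat) for 16 weeks. Each of the 4 groups (WT CD, WT HFD, HoipA-KO CD and HoipA-KO HFD) had 3 libraries of polyA RNA, and each library pooled GWAT of 3 mice. The labels do not say whether pools of the same number shared a litter or a day, so p-values measure the spread between these pools.

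A lipid droplet is a core of neutral lipid under a phospholipid monolayer that carries a protein coat. In white adipocytes the coat is led by perilipin 1, which holds lipases away from the core until hormones call for fatty acids, while perilipin 2 coats the smaller droplets of most other cells, among them lipid-laden macrophages. Seipin and FIT proteins in the endoplasmic reticulum let droplets form, CIDE proteins fuse them, and small inhibitors such as G0S2 and HILPDA block adipose triglyceride lipase. Plin1, Plin4, Cidec and G0s2 are called adipocyte-type droplet genes here, and Plin2 and Hilpda macrophage-type. These names describe where the genes are best known, and bulk tissue does not show which cells carried the transcripts.

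Some facts of the libraries bear on every value. Between 30513500 and 60540260 counts per library were assigned to genes, so that the floor of 3 counts lay at 0.0524 to 0.0996 CPM (estimated counts scaled to a common library size, with TMM normalisation over the 12 libraries). Rnf31 itself, counted over the whole gene and in all cells of the tissue, was at 12.01 to 20.9 CPM in WT mice on CD and 18.2 to 20.0 on HFD, and at 17.7 to 21.8 CPM in HoipA-KO mice on CD and 18.8 to 22.5 on HFD. It did not check the genotype labels. Adipocyte markers were above the floor in every library (14 of 14 genes), as were macrophage markers (10 of 10). WT CD replicate 3 stood apart, with 5025 genes more than 8-fold above all other libraries. Its r across genes was 0.793 and 0.795 with replicates 1 and 2, and the study's own comparisons leave it out. WT CD replicate 2, which was kept, had 451 genes more than 8-fold above all others. Between WT CD replicates 1 and 2 r was 0.904, against 0.971 to 0.993 within the other groups. Testis and epididymis markers (12 genes) summed to 7060 CPM in WT CD replicate 3, with the sperm protamine Prm1 at 1192 CPM. They also summed to 15080 CPM in WT CD replicate 2, with the epididymal gene Crisp1 at 12430 CPM, and to 1311 CPM in HoipA-KO HFD replicate 1. The other 9 libraries summed to 0.3 to 85.6 CPM. Tests were therefore fitted on 11 libraries, without WT CD replicate 3, and for part of the results values over all 12 are given beside them.

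The 10 genes lie on 7 chromosomes of GRCm38 (GENCODE vM21), and all are protein-coding. Plin4 (chr17:56100591-56109803), Plin5 (chr17:56111601-56117596) and Plin3 (chr17:56277476-56292873) are on the minus strand of chromosome 17, with 1797 bases between Plin4 and Plin5 and 159879 bases between Plin5 and Plin3. Plin1 is at chr7:79720218-79732903, Cidec at chr6:113424634-113435760, G0s2 at chr1:193272161-193273217, Plin2 at chr4:86648386-86670060 and Fitm2 at chr2:163466379-163472629, all on the minus strand. Hilpda (chr6:29272488-29275446) and Bscl2 (chr19:8837467-8848683) are on the plus strand. A read-through gene on the same strand covers 3671 bases of Bscl2, so the division of reads between them is uncertain. G0s2 lies wholly within Lamb3 on the opposite strand, and the libraries were made with a kit that keeps strand.

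Promoter windows of RefSeq (GRCm38.p6, 250 bases before to 50 after a transcription start) held all 10 genes in 15 windows. The 4 windows shown are those of Plin1 and Cidec, which hold TTGCNNAA, and of Plin2 and Hilpda, which hold ACGTG. In Plin1 (chr7:79732727-79733026, minus strand) and Cidec (chr6:113434715-113435014, minus strand, the inner of 2 starts), capitals mark TTGCNNAA, the letters that C/EBP factors of adipocytes are known to bind:
Plin1: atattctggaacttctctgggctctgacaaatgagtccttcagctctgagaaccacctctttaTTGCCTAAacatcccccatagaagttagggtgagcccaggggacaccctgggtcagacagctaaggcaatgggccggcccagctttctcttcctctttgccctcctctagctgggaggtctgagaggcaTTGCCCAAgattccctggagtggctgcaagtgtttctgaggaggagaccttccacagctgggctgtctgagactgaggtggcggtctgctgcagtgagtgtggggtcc
Cidec: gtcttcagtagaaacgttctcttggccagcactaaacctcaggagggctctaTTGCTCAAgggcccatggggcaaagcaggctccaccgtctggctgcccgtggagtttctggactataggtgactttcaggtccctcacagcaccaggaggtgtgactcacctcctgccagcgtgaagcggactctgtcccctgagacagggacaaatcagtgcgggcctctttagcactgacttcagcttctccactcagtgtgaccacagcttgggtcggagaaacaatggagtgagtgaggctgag
In Plin2 (chr4:86670010-86670309, minus strand) and Hilpda (chr6:29272376-29272675, plus strand, the inner of 2 starts), capitals mark ACGTG or GCGTG, the core of hypoxia-response elements, on either strand:
Plin2: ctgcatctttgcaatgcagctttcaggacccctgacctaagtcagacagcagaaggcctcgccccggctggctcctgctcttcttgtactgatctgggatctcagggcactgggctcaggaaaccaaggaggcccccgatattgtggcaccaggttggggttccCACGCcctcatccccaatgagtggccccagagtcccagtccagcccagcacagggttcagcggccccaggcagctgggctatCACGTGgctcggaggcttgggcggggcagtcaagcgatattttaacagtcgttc
Hilpda: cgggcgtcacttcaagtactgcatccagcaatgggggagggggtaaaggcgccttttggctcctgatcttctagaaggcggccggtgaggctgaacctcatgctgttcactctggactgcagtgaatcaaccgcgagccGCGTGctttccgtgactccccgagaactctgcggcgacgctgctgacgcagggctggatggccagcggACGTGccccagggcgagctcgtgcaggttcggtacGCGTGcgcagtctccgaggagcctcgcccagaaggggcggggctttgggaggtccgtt
TTGCNNAA was in windows of 2 members, Plin1 and Cidec, and in 10.8% of all 32851 windows. ACGTG was in windows of Plin2 and Hilpda and in 19.6% of all windows, and in Plin2 it overlaps the E-box CACGTG, which 7.15% of all windows hold. GCGTG was in windows of 7 members of either kind (32.4% of all windows). Among them were the adipocyte-type genes Cidec and G0s2, and the Cidec window above holds it in small letters. AGGTCA, a nuclear receptor half-site, was found in Plin2, Plin5 and Bscl2 (16.3%), TGANTCA, the AP-1 letters, in Cidec, Hilpda and Plin5 (7.81%), and TATAAA in no member (13.6%). Both strands were searched, the motifs were chosen after the levels were known, and a match is a description of letters and not a site in use.

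Compared per kilobase of merged exon, so that genes of different length can be set beside each other, Cidec was the most abundant of the 10 genes in WT tissue and Plin2 in HoipA-KO tissue. Cidec stood at 1147 ± 770 CPM per kb in WT CD and 1562 ± 137 in WT HFD (SD, n = 3). It was above the next gene, Plin4, in all 3 libraries of each. In WT CD the neighbours Plin4 (271 ± 216), Plin1 (234 ± 168) and G0s2 (230 ± 138 CPM per kb) did not differ beyond their spread, and Plin2 followed at 72.3 ± 33.8 CPM per kb, below G0s2 in all 3 libraries. In WT HFD the level of Plin2 was 334 ± 136 CPM per kb, within the range of Plin4 (337 ± 76).

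In HoipA-KO CD the order began with Plin2 at 641 ± 161 CPM per kb, above Cidec (412 ± 85.5) in all 3 libraries. In HoipA-KO HFD the 2 genes stood at 591 ± 176 and 374 ± 109 CPM per kb, and their ranges overlapped, with Plin2 above Cidec in 2 of 3 libraries. G0s2, Plin1 and Plin4 followed at 56.1 to 86.2 CPM per kb in HoipA-KO tissue, with overlapping ranges. Hilpda rose in the order from ninth in WT CD (8.33 ± 2.95 CPM per kb) to above Plin3, Bscl2 and Fitm2 in both HoipA-KO groups (42.4 ± 13 on CD and 39.4 ± 8.88 on HFD), though its range overlapped with that of Plin3. Plin5 was the lowest of the 10 genes in every group, at 2.17 to 6.69 CPM per kb on average.

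**Figure D1:**
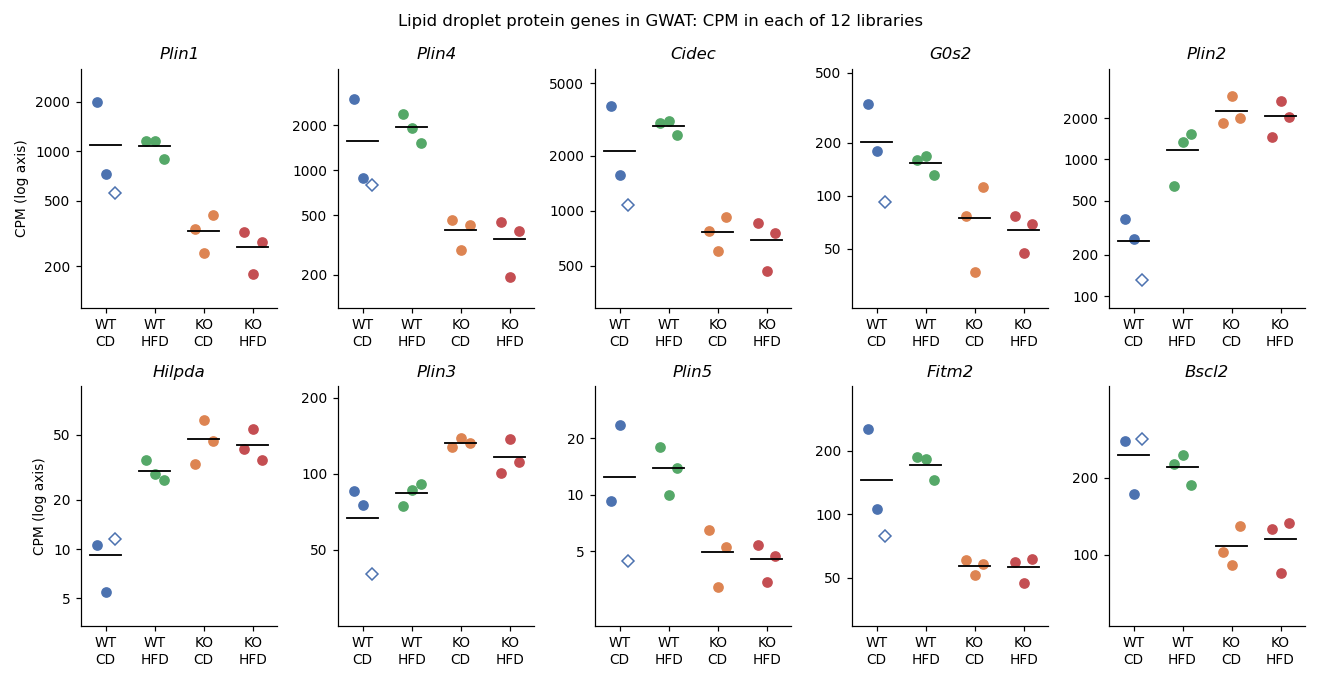
Normalised level in CPM (log axis) of each of the 10 lipid droplet protein genes in all 12 libraries, in the groups WT CD, WT HFD, HoipA-KO CD (KO CD) and HoipA-KO HFD (KO HFD). Points are libraries, the open diamond is WT CD replicate 3 and the line is the mean of 3 libraries. Plin1, Plin4, Cidec, Fitm2 and Bscl2 lie lower in every HoipA-KO library than in any WT library. Plin2 on CD lies between 131 and 368 CPM in WT and between 1858 and 2896 CPM in HoipA-KO.

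The first comparison asked what loss of HOIP in adipocytes does to these genes in mice on CD. All 4 adipocyte-type droplet genes fell and both macrophage-type genes rose. Of all 10 genes, 7 were lower and 3 were higher in HoipA-KO GWAT (edgeR's quasi-likelihood test, Benjamini-Hochberg adjusted over all genes), where 18.8% of all genes tested were lower and 18.9% higher. Over 12 libraries 6 were lower and 3 higher, beside 19.1% and 15.6% of all genes. Fits below without WT CD replicate 1 or 2 leave 1 WT CD library, assumed to vary like the other groups. Their p-values therefore do not rest on replicated WT CD controls. Without WT CD replicate 1 the falls of Plin1, Plin4, Cidec, G0s2, Fitm2 and Bscl2 were smaller. Fewer adipocytes and less of these transcripts per adipocyte cannot be told apart in bulk tissue, and the same holds for macrophages and the genes that rose.

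Plin1, the perilipin that guards the adipocyte droplet, was at 1987, 728 and 555 CPM in WT CD replicates 1, 2 and 3 and at 339, 240.3 and 407 CPM in HoipA-KO CD. Every HoipA-KO library was below every WT library, although WT CD replicate 1 was more than double the other WT pools. The log2 fold change was -2.01 ± 0.40 (SE, edgeR adjusted p = 0.0043), a 4.03-fold lower level, and -1.75 ± 0.44 over 12 libraries (edgeR adjusted p = 0.0148). It moved to -1.13 without WT CD replicate 1, which leaves replicate 2 as the only WT CD library in the fit.

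Plin4, which coats young droplets of white adipocytes, was at 3003, 896 and 801 CPM in WT CD and at 469, 294 and 433 CPM in HoipA-KO CD. The groups did not overlap, and the log2 fold change was -2.26 ± 0.49 (edgeR adjusted p = 0.00677) or -1.99 ± 0.52 over 12 libraries (edgeR adjusted p = 0.0162). Without WT CD replicate 1 it was -1.15 (edgeR adjusted p = 0.0642). This library was the highest of all 12 in Plin1, Plin4, Cidec, G0s2 and Fitm2, and its 14 adipocyte markers summed to 83360 CPM against 34800 and 22670 CPM in the other WT CD libraries.

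Cidec, which transfers lipid between droplets and so builds the large droplet of white fat, was at 3756, 1562 and 1071 CPM in WT CD and at 772, 603 and 919.7 CPM in HoipA-KO CD. The groups did not overlap, though the lowest WT library and the highest HoipA-KO library were close. It fell by 1.76 ± 0.37 on the log2 scale (edgeR adjusted p = 0.00531), and by 1.498 ± 0.43 over 12 libraries (edgeR adjusted p = 0.0228). The log2 fold change was -1.02 without WT CD replicate 1 (edgeR adjusted p = 0.0376), and with WT CD replicates 2 and 3 as controls the call was lost (-0.80, edgeR adjusted p = 0.0543).

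G0s2, an inhibitor of adipose triglyceride lipase, was at 330.2, 179.7 and 92.2 CPM in WT CD and at 76.7, 36.8 and 112 CPM in HoipA-KO CD. HoipA-KO CD replicate 3 was above WT CD replicate 3, so the groups overlapped over 12 libraries but not over the 11 tested. The log2 fold change was -1.74 ± 0.40 (edgeR adjusted p = 0.00899) and -1.44 ± 0.46 over 12 libraries (edgeR adjusted p = 0.0358). The call was lost without WT CD replicate 1 (-1.25, edgeR adjusted p = 0.0634).

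The macrophage-type genes went the other way. Plin2, the coat of droplets in foam cells and in many other cells, was at 368, 263 and 131 CPM in WT CD and at 1858, 2896 and 1997 CPM in HoipA-KO CD. The lowest HoipA-KO library thus stood far above the highest WT library. Plin2 was 7.34-fold higher (log2 2.88 ± 0.47, edgeR adjusted p = 0.0016), and 8.72-fold higher over 12 libraries (log2 3.12 ± 0.46, edgeR adjusted p = 0.000955).

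Hilpda, a hypoxia-inducible inhibitor of the same lipase that G0s2 blocks, was at 10.6, 5.46 and 11.5 CPM in WT CD and at 33.0, 61.5 and 45.7 CPM in HoipA-KO CD. No libraries overlapped between the groups. It was 6.01-fold higher (log2 2.59 ± 0.37, edgeR adjusted p = 0.000978), and 4.95-fold higher over 12 libraries (log2 2.31 ± 0.33, edgeR adjusted p = 0.000791).

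Plin3, a perilipin of nearly all cells that moves between cytosol and new droplets, was at 85.2, 75.1 and 40.0 CPM in WT CD and at 128, 139 and 133 CPM in HoipA-KO CD. The HoipA-KO pools were close together and above every WT pool. Its rise was smaller than that of Plin2, with a log2 fold change of 0.77 ± 0.17 (edgeR adjusted p = 0.00756) and of 0.97 ± 0.24 over 12 libraries (edgeR adjusted p = 0.0124).

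Plin5, which ties droplets to mitochondria in oxidative tissues, was low throughout, at 9.26, 23.6 and 4.45 CPM in WT CD and at 6.47, 3.22 and 5.28 CPM in HoipA-KO CD. The highest value came from WT CD replicate 2, the library with 15080 CPM of testis and epididymis markers. This library also had the highest mean log2(CPM + 1) of 8 brown and beige adipocyte markers (2.553). Among them Ucp1 was at 13 CPM, against at most 0.50 CPM in any other library. Cox7a1 and Cox8b were also highest in WT CD replicate 2, while Dio2, Ppargc1a, Cpt1b, Elovl3 and Otop1 were higher in other libraries. Summed CPM of these markers was highest in WT CD replicate 3 (174.4 against 52.78 CPM in replicate 2), with Cpt1b at 161.2 CPM. The part of either kind of tissue in the Plin5 value of replicate 2 was not tested. Plin5 was called lower over 11 libraries (-1.70 ± 0.42, edgeR adjusted p = 0.0122), but not over 12 (-1.34 ± 0.53, edgeR adjusted p = 0.0725) nor without WT CD replicate 2 (-0.85, edgeR adjusted p = 0.134).

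Fitm2, which partitions triglyceride into budding droplets, was at 252, 106 and 78.3 CPM in WT CD and at 60.6, 51.5 and 57.8 CPM in HoipA-KO CD. All HoipA-KO values were below all WT values, and the log2 fold change was -1.62 ± 0.30 (edgeR adjusted p = 0.00284) or -1.38 ± 0.35 over 12 libraries (edgeR adjusted p = 0.0146). It was -0.89 without WT CD replicate 1, with the call kept.

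Bscl2, which encodes seipin at the junction of the endoplasmic reticulum and the droplet and whose loss causes lipodystrophy, was at 278, 173 and 283 CPM in WT CD and at 102, 91.3 and 129 CPM in HoipA-KO CD. Unlike the adipocyte-type genes, Bscl2 was highest in WT CD replicate 3, the library with the sperm marker Prm1 at 1192 CPM, and a part of testis transcripts in this value was not tested. The groups did not overlap, and the log2 fold change was -1.03 ± 0.25 (edgeR adjusted p = 0.0118) or -1.22 ± 0.25 over 12 libraries (edgeR adjusted p = 0.00615). Without WT CD replicate 1 it was -0.67 (edgeR adjusted p = 0.0893).

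Markers of the cells moved with these genes. On CD, 12 of 14 adipocyte markers were lower in HoipA-KO and none was higher (median log2 fold change -2.56, against -0.06 over all genes tested), and 9 of 10 macrophage markers were higher and none lower (median 3.51). Summed adipocyte markers ranged from 22670 to 83360 CPM in WT CD and from 14840 to 15660 CPM in HoipA-KO CD, and summed macrophage markers from 517 to 714 CPM and from 8971 to 11690 CPM. Lipid-associated macrophage markers such as Gpnmb and Mmp12 were higher for 9 of 9 genes (median 5.77). Mast cell markers summed to 20.0 to 30.4 CPM in WT CD and to 551 to 663 CPM in HoipA-KO CD. Over 12 libraries the median of all genes was -0.21, and 11 adipocyte markers were lower and 8 macrophage markers higher. The part of a changed cell makeup in the fold changes of the 10 genes was not tested.

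**Figure D2:**
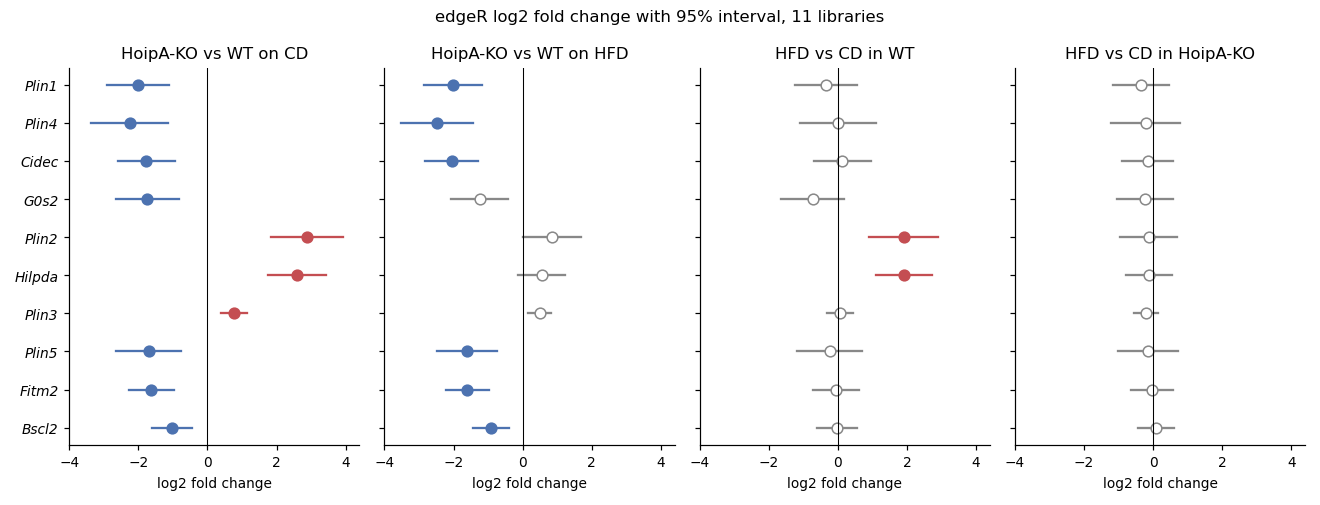
Log2 fold change (point) with its 95% interval (bar) of each of the 10 genes in 4 comparisons, from edgeR over 11 libraries. Blue marks genes called lower, red genes called higher and open grey points genes not called at an adjusted p of 0.05. On CD the 7 lower genes lie between -2.26 and -1.03 and Plin2 and Hilpda at 2.88 and 2.59, while HFD against CD in HoipA-KO has no call.

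The same comparison was made on HFD. Lower in HoipA-KO were 6 of the 10 genes, Plin1, Plin4, Cidec, Plin5, Fitm2 and Bscl2, and none was called higher, beside 7.62% and 4.20% of all genes tested. Over 12 libraries 4 were lower (Plin1, Plin4, Cidec and Fitm2) and none higher, beside 2.25% and 0.531% of all genes. Leaving out WT HFD replicate 1 or HoipA-KO HFD replicate 2 left 1 gene called lower (Cidec), and leaving out WT HFD replicate 2 left 2 (Cidec and Fitm2).

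On HFD, Plin1 was at 1156, 1153 and 900 CPM in WT and at 321, 179 and 282 CPM in HoipA-KO. The 2 groups were far apart and the WT pools closer to each other than on CD. The log2 fold change was -2.02 ± 0.37 (edgeR adjusted p = 0.0147), close to that on CD.

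Plin4 was at 2394, 1935 and 1516 CPM in WT HFD and at 451, 193 and 394 CPM in HoipA-KO HFD (log2 -2.48 ± 0.47, edgeR adjusted p = 0.0152). Cidec was at 3010.15, 3081 and 2608 CPM in WT HFD and at 861, 470.0 and 750.2 CPM in HoipA-KO HFD (log2 -2.05 ± 0.34, edgeR adjusted p = 0.0115). Neither gene overlapped between the groups. Over 12 libraries the log2 fold changes of Plin1, Plin4 and Cidec were -2.04, -2.49 and -2.06 (edgeR adjusted p = 0.0447, 0.0404 and 0.0398).

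G0s2 was at 159, 168 and 131 CPM in WT HFD and at 76.1, 46.9 and 69.2 CPM in HoipA-KO HFD. These libraries did not overlap, but its log2 fold change of -1.24 ± 0.37 missed the threshold (edgeR adjusted p = 0.0573). It was called with DESeq2's Wald test (-1.23, adjusted p = 0.00793) and under several other settings of the same edgeR test, among them at least 10 counts in every library (adjusted p = 0.0435), while over 12 libraries the edgeR adjusted p was 0.151.

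The 2 genes of droplet formation were lower on HFD too. Fitm2 was at 187, 183 and 145 CPM in WT HFD and at 59.3, 47.3 and 61.4 CPM in HoipA-KO HFD (log2 -1.60 ± 0.27, edgeR adjusted p = 0.0124). Bscl2 was at 226, 245 and 187 CPM in WT HFD and at 126, 84.4 and 133 CPM in HoipA-KO HFD (log2 -0.92 ± 0.23, edgeR adjusted p = 0.0362, and 0.0725 over 12 libraries). Plin5, at 17.99, 10.0 and 13.9 CPM in WT HFD and 5.42, 3.44 and 4.75 CPM in HoipA-KO HFD, did not overlap either (log2 -1.61 ± 0.39, edgeR adjusted p = 0.0331, and 0.12 over 12 libraries).

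Plin2 was at 635, 1337 and 1547 CPM in WT HFD and at 1464, 2700.2 and 2062 CPM in HoipA-KO HFD. The lowest HoipA-KO pool was under the highest WT pool, so the groups overlapped. The log2 fold change was 0.85 ± 0.37 with a 95% interval of 0.02 to 1.68 (edgeR adjusted p = 0.151).

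Hilpda was at 35.0, 28.8 and 26.3 CPM in WT HFD and at 40.7, 54.3 and 35.3 CPM in HoipA-KO HFD. The groups came within 1 CPM of each other without overlapping, and the log2 fold change was 0.55 ± 0.30 with a 95% interval of -0.12 to 1.22 (edgeR adjusted p = 0.238). Plin3 was at 74.6, 86.0 and 91.0 CPM in WT HFD and at 101, 137 and 111 CPM in HoipA-KO HFD (log2 0.49 ± 0.15, edgeR adjusted p = 0.0611). It was called higher by DESeq2's Wald test (0.51, adjusted p = 0.00406) and under 4 other settings of the processing. Over 12 libraries Plin3 was not called (0.47 ± 0.24, edgeR adjusted p = 0.273). Macrophage markers summed to 1877, 3405 and 5553 CPM in the WT HFD libraries and to 7076 to 10710 CPM in HoipA-KO HFD, with 5 of 10 called higher, and 13 of 14 adipocyte markers were called lower. Over 12 libraries these counts were 0 and 9.

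Diet alone moved the macrophage-type genes in WT mice. Plin2 and Hilpda were higher on HFD than on CD and none of the 10 genes was lower, beside 9.35% and 5.47% of all genes tested (9.05% and 5.97% over 12 libraries, again with 2 and 0 of the 10). The Plin2 values of 635 to 1547 CPM on HFD all lay above the 131 to 368 CPM on CD. Its log2 fold change was 1.90 ± 0.44 (edgeR adjusted p = 0.0227) and 2.18 ± 0.45 over 12 libraries (edgeR adjusted p = 0.0129). The Hilpda values of 26.3 to 35.0 CPM on HFD all lay above the 5.46 to 11.5 CPM on CD. For Hilpda this came to 1.91 ± 0.36 (on the log2 scale, edgeR adjusted p = 0.0106) and 1.67 ± 0.33 over 12 libraries (edgeR adjusted p = 0.0101). Both calls were lost without WT CD replicate 2 (1.68 and 1.52, edgeR adjusted p = 0.116 and 0.0588), and that of Plin2 also without WT HFD replicate 2 or 3 (edgeR adjusted p = 0.0671 and 0.0783). Without WT CD replicate 1 the genes called higher were 3, with Fitm2 added (0.71, edgeR adjusted p = 0.0372).

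The macrophage markers stood beside them. In WT, 8 of 10 were higher on HFD than on CD and none was lower. Within WT HFD, replicate 1 was lowest and replicate 3 highest in summed macrophage markers and in Plin2 alike, whereas Hilpda was highest in replicate 1.

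The other 8 genes were not called in this comparison. Their log2 fold changes ran from -0.73 (G0s2, 95% interval -1.63 to 0.17) to 0.13 (Cidec, -0.70 to 0.96), and those of Plin4, Plin3, Fitm2 and Bscl2 lay between -0.05 and 0.07. The 95% intervals of Plin1 (-1.23 to 0.56) and Plin4 (-1.10 to 1.11) leave room for changes of more than 2-fold. With WT CD replicates 2 and 3 as controls Plin4, Cidec and Fitm2 were called higher on HFD (1.18, 1.12 and 0.88, edgeR adjusted p = 0.0371, 0.0216 and 0.00818).

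In HoipA-KO mice diet moved none of the 10 genes past the threshold. Their log2 fold changes on HFD against CD ran from -0.35 (Plin1) to 0.08 (Bscl2), and every gene overlapped between the 2 diets. The background was 0% of all genes in either direction over 11 as over 12 libraries. At an unadjusted p under 0.05 edgeR counted 415 genes, none of the 10 among them (252 genes and none over 12 libraries), and DESeq2 called 7 genes after adjustment, none of the 10. The 95% interval was -0.95 to 0.69 for Plin2 and -0.79 to 0.55 for Hilpda.

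Whether the genotype difference itself changed with diet was tested as an interaction. Hilpda was the gene called among the 10, with a genotype difference 2.04 ± 0.46 lower on HFD than on CD on the log2 scale (-2.04, edgeR adjusted p = 0.0448), and none was called in the other direction, beside 3.58% and 0.331% of all genes tested. Plin2 had nearly the same value with a larger error (-2.03 ± 0.57, edgeR adjusted p = 0.0808). Over 12 libraries neither was called (-1.78 and -2.30, edgeR adjusted p = 0.0719 and 0.0834), beside 2.70% and 0.0775% of all genes, while DESeq2's Wald test called both (-1.99 and -1.97, adjusted p = 0.000776 and 0.00396). The Hilpda call was lost on leaving out any of 9 of the 11 libraries, and held without WT CD replicate 1 and without HoipA-KO HFD replicate 2. Without WT CD replicate 1 or WT HFD replicate 1, Plin2 passed the threshold (-2.29 and -2.32, edgeR adjusted p = 0.0454 and 0.026). For the other 8 genes the interaction ran from -0.29 (Cidec) to 0.50 (G0s2), and none was called.

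**Figure D3:**
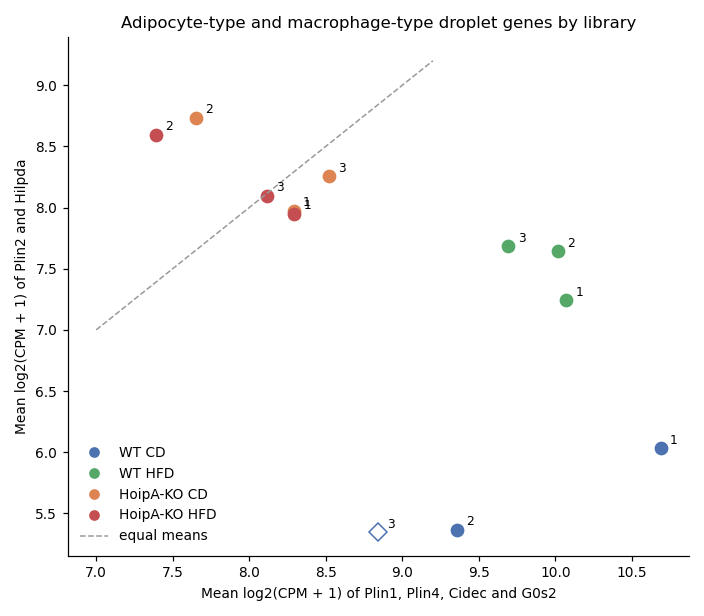
Mean log2(CPM + 1) of the adipocyte-type droplet genes (horizontal axis) and of the macrophage-type droplet genes (vertical axis) in each of the 12 libraries, with the replicate number beside each point and WT CD replicate 3 as an open diamond. The dashed line marks equal means. WT libraries lie right of and below the line, with differences of -4.66 to -2.01, while HoipA-KO libraries lie near it, from -0.34 to 1.21.

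The contrast of the 2 kinds of droplet gene was described for each library as the mean log2(CPM + 1) of Plin2 and Hilpda minus that of Plin1, Plin4, Cidec and G0s2. In WT mice it was -4.05 ± 0.58 on CD and -2.41 ± 0.41 on HFD, and in HoipA-KO mice 0.17 ± 0.80 on CD and 0.28 ± 0.82 on HFD (SD, n = 3). No WT CD library overlapped with WT HFD and no WT library with HoipA-KO, while the HoipA-KO groups lay over each other. No p is given, since the genes were chosen with these results known.

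The shift between the groups had different parts. From WT CD to WT HFD the adipocyte-type mean went from 9.63 ± 0.95 to 9.93 ± 0.20 and the macrophage-type mean from 5.58 ± 0.39 to 7.52 ± 0.24. In HoipA-KO CD the adipocyte-type mean was 8.16 ± 0.45 and the macrophage-type mean 8.32 ± 0.38. On HFD the HoipA-KO means were 7.93 ± 0.48 and 8.21 ± 0.34.

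As the ratio of Plin2 to Plin1 counts, whose values do not depend on library scaling, WT CD was at 0.185, 0.361 and 0.237 and WT HFD at 0.549, 1.16 and 1.72. HoipA-KO CD was at 5.47, 12.1 and 4.90 and HoipA-KO HFD at 4.56, 15.1 and 7.31. The order of the groups was thus the same, and no WT library reached the lowest HoipA-KO value.

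In each HoipA-KO group replicate 2 was the highest in Plin2, Hilpda and Plin3 and the lowest in the 7 other genes. The difference of the 2 kinds was 1.08 in HoipA-KO CD replicate 2 and 1.21 in HoipA-KO HFD replicate 2, and below 0 in the other 4 HoipA-KO libraries (-0.34 to -0.02). Without replicate 2 the HoipA-KO mean was -0.29 on CD and -0.18 on HFD. Summed macrophage markers were highest in these same libraries (11690 CPM on CD and 10710 CPM on HFD). Summed adipocyte markers were lowest there (14840 and 12180 CPM). Lyz2 alone gave 7496 and 5901 CPM of the macrophage sums. In HoipA-KO CD replicate 2, Adgre1 and Csf1r were also highest of the group, while C1qa, C1qb and Aif1 were lowest. By mean log2(CPM + 1) the macrophage markers on HFD were highest in replicate 3 (8.508, against 8.498 in replicate 2). Nothing in the labels ties pools of the same number together.

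The adipocyte-type genes were also set against marker levels within each library. Plin1 minus the mean log2(CPM + 1) of 14 adipocyte markers was -0.13 to 0.12 in WT CD and 0.74 to 0.95 in HoipA-KO CD. On HFD it was 0.30 to 0.65 in WT and 0.95 to 1.12 in HoipA-KO. For Cidec and G0s2 too, every HoipA-KO library was above every WT library on both diets, while Plin4 did so on CD and overlapped on HFD (1.24 to 1.40 in WT and 1.05 to 1.604 in HoipA-KO). The marker mean holds Cfd, Adrb3 and Retn with 88.5-fold, 43.4-fold and 17.7-fold lower levels on CD.

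Relative to 10 macrophage markers, Plin2 overlapped between all groups. In WT mice the difference was 2.07 to 3.34 on CD and 2.78 to 3.18 on HFD, and in HoipA-KO mice 2.66 to 3.22 on CD and 2.37 to 2.90 on HFD. On CD Hilpda was at -2.19 to -1.34 in WT and at -3.11 to -2.32 in HoipA-KO, without overlap, whereas on HFD it was at -3.05 to -1.23 in WT and -3.33 to -2.71 in HoipA-KO, with overlap. Plin3 went from 0.38 to 1.37 in WT CD to between -1.19 and -1.16 in HoipA-KO CD. The lowest WT CD values of Plin2 and Plin3 were those of replicate 3. Its marker mean holds Aif1 at 160 CPM, against 7.19 and 7.52 CPM in replicates 1 and 2. These differences describe proportions in bulk tissue and do not show in which cells the genes were transcribed. They were taken against the 10 macrophage markers alone. Mean log2(CPM + 1) of the 9 lipid-associated macrophage markers was 3.71 to 4.89 in WT CD and 10.1 to 10.5 in HoipA-KO CD. Plin2 was not set against that list.

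**Figure D4:**
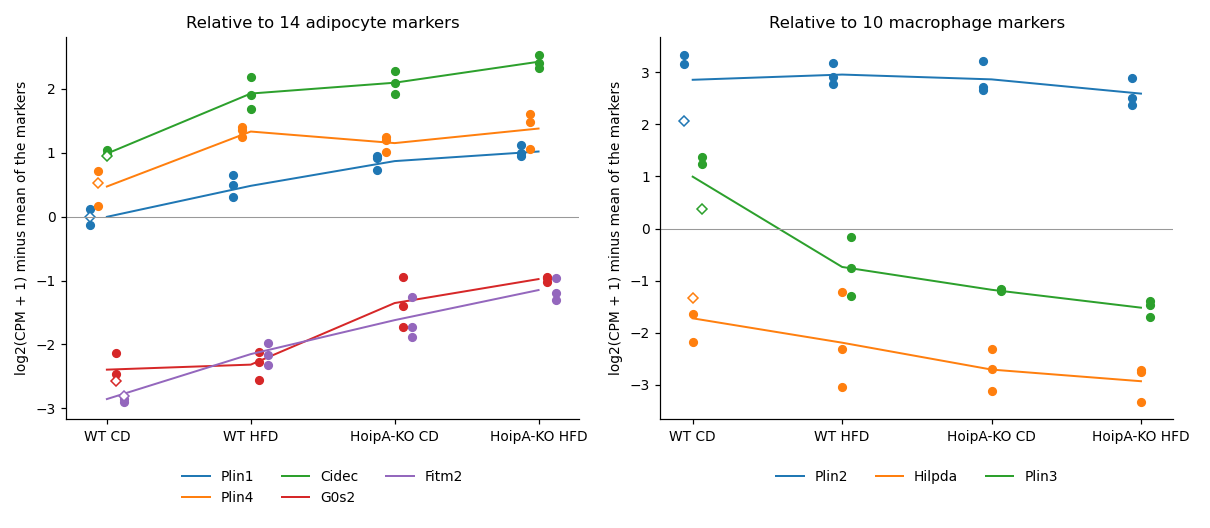
Log2(CPM + 1) of a gene minus the mean of the same library's adipocyte markers (left, for Plin1, Plin4, Cidec, G0s2 and Fitm2) or macrophage markers (right, for Plin2, Hilpda and Plin3), by group. Points are libraries, open diamonds WT CD replicate 3 and lines join group means. Plin2 stays between 2.07 and 3.34 in all 12 libraries, whereas Plin1 goes from -0.13 to 0.12 in WT CD up to 0.95 to 1.12 in HoipA-KO HFD.

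Among the genes with the pattern most like Plin1 over the 11 libraries, of 10234 genes with a mean of at least 10 CPM, were Lipe, Aoc3, Plaat3 and Myl1. Likeness was measured as the root mean square difference of log2(CPM + 1) after centring each gene. It was 0.10 for Lipe, which encodes hormone-sensitive lipase, and 0.155 to 0.163 for Aoc3, Plaat3 and Myl1, beside a spread of Plin1 itself of 1.07. Nearest to Plin2 were Scpep1, Ticam2, Bub1, Casp1 and Taok3 (0.139 to 0.166, spread 1.10). Their log2 fold changes between genotypes on CD ran from 2.82 (Scpep1) to 4.28 (Bub1), against 2.88 for Plin2. Nearest to Hilpda were Itga5, Septin9, Actn1, Gadd45b and C1qtnf6 (0.256 to 0.289, spread 0.93). Among the members, Plin1 and Cidec were the closest pair (0.172), and Plin2 and Hilpda were less close (0.466). All these values describe the same 11 libraries and carry no p.

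The enzymes and other proteins of the droplet were followed in 3 lists. Of 15 other genes of droplet formation and growth, 10 were lower and 1 was higher in HoipA-KO on CD (median log2 fold change -1.36), and 9 were lower and none higher on HFD (median -1.71), where the medians of all genes tested were -0.06 and 0.06. Of all genes tested, 18.8% were lower and 18.9% higher on CD, and 7.62% and 4.20% on HFD. Over 12 libraries these counts were 9 and 1 on CD (19.1% and 15.6% of all genes) and 5 and 0 on HFD (2.25% and 0.531%). Mogat1, a monoacylglycerol acyltransferase, fell furthest among genes of at least 10 CPM, from 56.8, 21.4 and 13.1 CPM in WT CD to 1.302, 0.747 and 1.78 CPM in HoipA-KO CD (log2 -4.91 ± 0.59, edgeR adjusted p = 0.000519). The glycerol phosphate acyltransferase Gpat3 and the phosphatidate phosphatase Lpin1 followed (-2.28 ± 0.36 and -1.99 ± 0.38, edgeR adjusted p = 0.00154 and 0.00361). The gene that rose was Pcyt1a, the rate-limiting enzyme of phosphatidylcholine synthesis, which covers growing droplets with phospholipid (1.59 ± 0.37, edgeR adjusted p = 0.00936).

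The list of droplet lipases and regulators moved in both directions on CD. Of 12 lipases and regulators, 8 were lower and 2 higher on CD (median -1.45), and 6 lower and none higher on HFD (median -1.28). The shares of all genes lower and higher were 18.8% and 18.9% on CD and 7.62% and 4.20% on HFD. Over 12 libraries the counts of this list were 8 and 2 on CD (19.1% and 15.6% of all genes) and 3 and 0 on HFD (2.25% and 0.531%). The carboxylesterase Ces1d, Pnpla3 and Lipe fell furthest on CD (-4.21 ± 0.54, -3.22 ± 0.69 and -2.14 ± 0.39, edgeR adjusted p = 0.000628, 0.00622 and 0.00289). Lipe was at 2320, 824 and 810.4 CPM in WT CD and at 373, 263 and 408 CPM in HoipA-KO CD, with no overlap.

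Lipa, the acid lipase that degrades lipid in lysosomes, rose instead. It was at 59.3, 90.8 and 31.9 CPM in WT CD and at 1367, 2056 and 1047 CPM in HoipA-KO CD (log2 4.35 ± 0.68, edgeR adjusted p = 0.00136), and it was higher on HFD than on CD in WT as well (2.72 ± 0.62, edgeR adjusted p = 0.0218). Lipa was thus on the side of Plin2 and Hilpda, and Lipe on that of Plin1. The other gene of this list that rose on CD was Aup1 (0.73 ± 0.16, edgeR adjusted p = 0.00791).

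Genes of droplet trafficking and other coat proteins (21 genes) also went in both directions. On CD 2 were lower and 7 higher (median 0.40), beside 18.8% and 18.9% of all genes tested. On HFD 3 were lower and 2 higher (median 0.08), beside 7.62% and 4.20%. Over 12 libraries the counts were 2 and 6 on CD (19.1% and 15.6% of all genes) and 0 and 0 on HFD (2.25% and 0.531%). Cav1, the caveolin of the adipocyte surface, and Nsdhl of sterol synthesis were lower on CD (-1.65 ± 0.42 and -1.14 ± 0.20, edgeR adjusted p = 0.0139 and 0.00247). The intermediate filament gene Vim and the droplet enzyme Hsd17b11 were higher (2.02 ± 0.43 and 0.97 ± 0.22, edgeR adjusted p = 0.00604 and 0.00746).

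**Figure D5:**
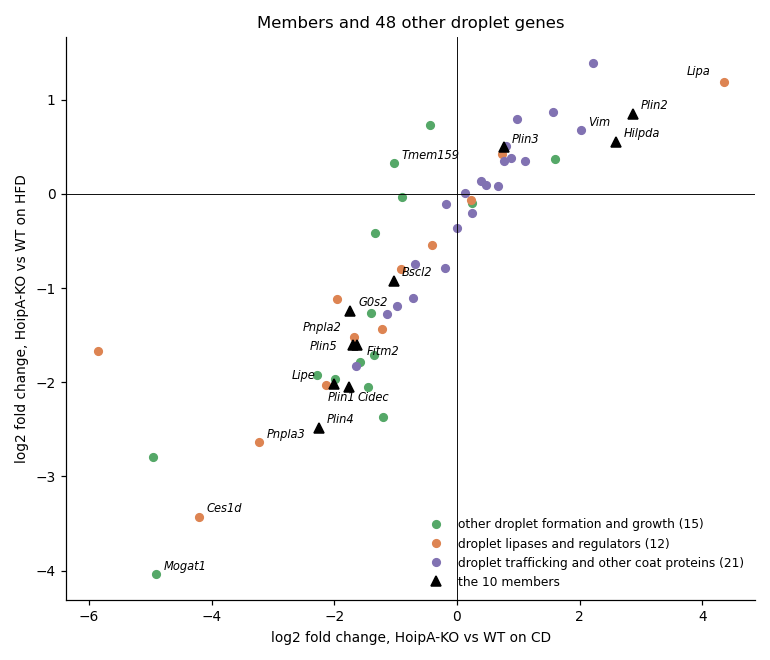
Log2 fold change of HoipA-KO against WT on CD (horizontal axis) and on HFD (vertical axis) for the 10 members (black triangles) and 48 other droplet genes in 3 lists (coloured points), from edgeR over 11 libraries. Plin1, Plin4, Cidec, Lipe and Ces1d lie low on both diets, and Plin2, Hilpda and Lipa lie high on CD (2.88, 2.59 and 4.35) with smaller values on HFD (0.85, 0.55 and 1.18).

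Hilpda and Plin2 are also known as targets of hypoxia and of PPAR receptors, so lists of each were counted. Of 12 hypoxia-response genes, 4 were higher on CD in HoipA-KO (Car9, P4ha1, Slc2a1 and Pgk1) and 2 were lower (Bnip3 and Vegfa), with a median of -0.46, beside 18.9% and 18.8% of all genes tested. Vegfa and Bnip3 fell by 2.02 ± 0.42 and 2.29 ± 0.32 on the log2 scale (edgeR adjusted p = 0.00523 and 0.000918). P4ha1, Slc2a1 and Pgk1 rose by 1.24 ± 0.23, 1.21 ± 0.29 and 0.96 ± 0.25 (edgeR adjusted p = 0.00287, 0.011 and 0.0145). Of 12 PPAR-responsive genes, 6 were lower on CD and 1, Cpt1a, was higher (median -0.93), beside the same shares. This list is not independent of the others. Its Fabp4, Lpl, Pck1 and Aqp7 are also adipocyte markers, and its Acsl1 is also in the list of droplet formation and growth. In WT on HFD against CD, 2 hypoxia-response genes (Car9 and P4ha1) and 2 PPAR-responsive genes (Cpt1a and Pdk4) were higher. None of either list was lower, beside 9.35% of all genes higher and 5.47% lower.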

How the data were processed

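RNA was measured in 12 pools of GWAT (4 groups of 3 libraries, RNA of 3 male mice of 22 to 24 weeks in each). The authors trimmed reads with Trim Galore 0.6.7, aligned them with STAR (2.7.10a) and deposited estimated counts per gene from Salmon (1.5.2), with GRCm38 named as the build in the submitters' processing notes. The authors' DESeq2 (1.38.1) tables of fold changes and p-values were not used. Estimated counts were rounded, filtered with filterByExpr and fitted for all 4 groups with edgeR 4.0.16 (TMM, quasi-likelihood test, Benjamini-Hochberg adjustment over all genes tested, threshold 0.05). The fit used 11 libraries, without WT CD replicate 3, and was repeated over 12. Levels are CPM from TMM over 12 libraries, and log2 levels add a pseudocount of 1. Depth was 30513500 to 60540260 counts per library, and intervals from the fit are 95% intervals. Scripts were tested on simulated counts.

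The 10 genes, the marker and droplet gene lists and the motifs were chosen with earlier results of these data known. All members are named, and of each list the genes with the largest change on CD, up to 3 in each direction, with a mean of at least 10 CPM, as well as genes that a small count required. Of the droplet gene lists and markers only the lists that bear on the 10 genes are reported. Alternatives covered the libraries, normalisation, filter, table, test (DESeq2 1.42.0), groups in the fit, a replicate block and leaving out each library. Symbols came from the table, and 94% of its gene IDs were in GENCODE vM21. Protein sequences were not used here. The 5 genes nearest to Plin1, Plin2 and Hilpda are named, except that 1 of those nearest to Plin1 is not reported here.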

Additional observations from a re-analysis of the deposited data

Results flagged for a closer look

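The genotype difference of Hilpda passed the test of a change with diet over 11 libraries. It was 2.59 higher in HoipA-KO on CD and 0.55 higher on HFD on the log2 scale, and the interaction was -2.03632 over 11 libraries (edgeR's quasi-likelihood test, Benjamini-Hochberg adjusted p = 0.0448). The call was kept in 9 of 21 alternatives, and was lost over 12 libraries (adjusted p = 0.0719) and on leaving out any of 9 libraries. Over the alternatives the adjusted p ran from 0.000776 to 0.122. Hilpda stood at 5.46 to 11.5 CPM in WT CD and at 26.3 to 61.5 CPM in the 9 libraries of the other groups.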

How the results depend on the processing

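Of the fold changes of the 10 genes between genotypes on each diet and between diets in WT, and of the interactions of Plin2 and Hilpda, under the alternatives, 588 kept their direction and side of the threshold, 57 lost the call, 23 gained one and 34 turned direction. Those 34 belong to HFD against CD in WT, and none of them was called over 11 libraries. Among the other interactions, that of Plin5 went from 0.09 to -0.28 over 12 libraries and that of Fitm2 from 0.02 to -0.23, with no call. Where a WT CD library was left out, the group had 1 library in the fit, which was assumed to vary like the other groups. The pseudocount of 0.1 and library-size CPM kept each group's contrast of the 2 kinds within its spread. Precision is limited by the 3 pools per group and by the unlike WT CD libraries. The cause of these changes was not tested.

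For HFD against CD in WT, these log2 fold changes turned. Over all 12 libraries Plin5 was at 0.14 and Fitm2 at 0.22. Plin4 was at -0.023 with DESeq2 size factors and with DESeq2's Wald test, at -0.052 without a filter, at -0.010 with at least 10 counts in every library, at -0.050 in the protein-coding table and at -0.053 with the 2 groups alone. Plin3 was at -0.0090 without a filter, at -0.024 in the protein-coding table and at -0.022 with the 2 groups alone. With library size alone Fitm2 was at 0.030 and Bscl2 at 0.030. With WT CD replicates 1 and 3 as controls Plin5 was at 1.00 and Fitm2 at 0.037, and with replicates 2 and 3 Plin1 was at 0.72, G0s2 at 0.15 and Fitm2 at 0.88. Leaving out each library in turn gave -0.88 to 0.57 for Plin1, -0.61 to 1.13 for Plin4, -0.36 to 0.90 for Cidec, -0.092 to 0.17 for Plin3, -0.75 to 0.60 for Plin5, -0.54 to 0.71 for Fitm2 and -0.33 to 0.35 for Bscl2.

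The counts of the 10 genes called moved as follows. On CD, 4 were lower with WT CD replicates 2 and 3 as controls, and 4 to 7 on leaving out each library. On HFD, 1 was higher (Plin3) with DESeq2 size factors, library size alone, at least 10 counts in every library, the protein-coding table or DESeq2's Wald test, and 0 to 1 on leaving out each library, while 1 to 7 were lower. For HFD against CD in WT, 5 were higher with WT CD replicates 2 and 3, 0 with the 2 groups alone and 0 to 3 on leaving out each library. In the interaction, 0 were lower over 12 libraries, 2 with DESeq2's Wald test, 0 with WT CD replicates 1 and 3, 3 with replicates 2 and 3 and 0 to 2 on leaving out each library.

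Libraries of the same number did not deviate together in every case (r from -0.322 to 0.576 across genes over 15 pairs of libraries), and no label ties them. With the replicate number as a block, 1 of the 10 genes was higher on HFD in WT (Plin2 at 1.70, edgeR adjusted p = 0.0523, was lost), 0 were called in the interaction, and Fitm2 on HFD against CD in WT was at 0.039. G0s2 on HFD was called lower under the block (-1.32, edgeR adjusted p = 0.0366).

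Taken as Plin2 against Plin1 alone, the contrast of the 2 kinds was -1.99 on CD and 0.044 on HFD in WT mice, and 2.78 on CD and 2.99 on HFD in HoipA-KO mice. Leaving out each library of the group gave -0.29 to 0.41 on CD and -0.18 to 0.59 on HFD in HoipA-KO mice for the contrast of all genes of the 2 kinds.

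Counts over all genes moved by more than 1.5 times in places. Lower on CD were 3456 genes, and 1671 with the 2 groups alone. On HFD 1405 were lower and 774 higher, against 407 and 96 over 12 libraries, 2239 and 2216 with DESeq2, and 521 and 151 with WT CD replicates 1 and 3. Higher on HFD were 272 with WT CD replicates 2 and 3, 1279 with library size alone and 465 without a filter. For HFD against CD in WT, 1008 were lower and 1723 higher, against 0 and 0 with the 2 groups alone and 3708 and 3338 with WT CD replicates 2 and 3. Lower there were 2155 with DESeq2, 307 with the block and 1666 with WT CD replicates 1 and 3. For HFD against CD in HoipA-KO, 7 were higher with DESeq2 against 0. In the interaction 660 were lower and 61 higher, against 1469 and 905 with DESeq2, 363 and 14 with the block, 318 and 8 with WT CD replicates 1 and 3, and 1882 and 1668 with replicates 2 and 3. Over 12 libraries 14 were higher.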

Other observations

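Of 15 other genes of droplet formation and growth, 3 were lower on HFD than on CD in WT and none was higher, beside 5.47% of all genes lower. Tmem159, which encodes the partner of seipin at droplet formation sites, was at -1.25 (log2 fold change, edgeR adjusted p = 0.00618), the glycerol phosphate acyltransferase Gpat4 at -0.89 (edgeR adjusted p = 0.00695) and Mogat1 at -1.83 (edgeR adjusted p = 0.0473). Over 12 libraries Gpat4 alone of this list of 15 was lower (-1.42). Of the trafficking and coat list, Obsl1 was higher on HFD over 11 libraries (1.12, edgeR adjusted p = 0.0156) and turned to -0.30 over 12 (edgeR adjusted p = 0.759), with 18.3 CPM in WT CD replicate 3 against 3.61 and 2.87 CPM in replicates 1 and 2. Plin1 and Cidec were not called in this comparison. Tmem159 was lower in HoipA-KO on CD (-1.03, edgeR adjusted p = 0.00144, and 0.0899 over 12 libraries), while on HFD its log2 fold change was 0.33.

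Pnpla2, which encodes adipose triglyceride lipase, the enzyme that G0s2 and Hilpda inhibit, was lower in HoipA-KO on both diets (-1.68 on CD and -1.52 on HFD, edgeR adjusted p = 0.00161 and 0.0113). The ratio of Hilpda to G0s2 counts was 0.0304 to 0.1248 in WT CD and 0.171 to 0.220 in WT HFD. In HoipA-KO it was 0.41 to 1.67 on CD and 0.509 to 1.16 on HFD, so that no HoipA-KO library overlapped with WT.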
